A study of Mus musculus with 12 samples.

Results

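Translation initiation factors are the proteins that bring the ribosome, the initiator tRNA and the messenger RNA together at the start codon. They were taken here as every gene symbol of the deposited table that starts with Eif1, Eif2, Eif3, Eif4, Eif5 or Eif6. The eIF2 kinase genes (4 symbols), pseudogene symbols (4) and the sex-linked genes of eIF2 gamma, Eif2s3x and Eif2s3y, were left out of the 62 symbols with such a start. That leaves 52 of the 37187 genes in the table and the rule reads symbols alone. The label holds for 48 of the 52. The other 4, Eif2c1, Eif2c3, Eif2c4 and Eif2c5, are older symbols: the first 3 are the Argonaute genes Ago1, Ago3 and Ago4, which bind small RNAs, and Eif2c5 is annotated as a long noncoding RNA. These 4 are described apart from the factors.

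In cap-dependent initiation, eIF4F binds the cap of the mRNA. Its parts are the cap-binding protein eIF4E, the scaffold eIF4G and the RNA helicase eIF4A. The small ribosomal subunit arrives with eIF3, eIF1, eIF1A, eIF5 and a complex of eIF2, GTP and the initiator tRNA, and scans to the start codon, where eIF5B joins the large subunit. Initiation is throttled at eIF2, which eIF2B recharges with GTP unless a stress kinase has phosphorylated it, and at eIF4E, which the 4E-BP proteins hold away from eIF4G until mTOR phosphorylates them. Blood stem cells are known for a low rate of protein synthesis, and many initiation factor genes are known targets of MYC, the transcription factor that the title of the study ties to TRAF6.

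The cells were mouse bone marrow cells sorted as LSK (lineage-negative, Sca-1-positive, c-Kit-positive), a gate of blood stem and multipotent progenitor cells. There were 4 genotypes with 3 libraries each, written below as replicates 1, 2 and 3: WT, Tet2 KO, Traf6 KO and a double knockout of both genes (Tet2;TRaf6 dKO, here dKO). The product of Tet2 oxidises methylated cytosine, and that of Traf6 is a ubiquitin ligase of innate immune signalling. The labels name no treatment and do not give the deleted exons, the Cre or promoter behind a deletion, or the age and sex of the mice. No label states that the 3 libraries per genotype came from separate animals, so every p-value measures the spread between libraries, which may be technical. Values are the authors' normalised signal, that is reads per gene scaled per library. Library depth was 22169673 to 53921402 reads.

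Some facts of the libraries touch the results below. The library labelled Traf6 KO replicate 1 had a Traf6 signal of 2474, and the one labelled Tet2 KO replicate 1 a Tet2 signal of 668, both inside their WT ranges of 1935 to 3006 and 525 to 783. In the dKO libraries Traf6 stood at 799 to 1313 and Tet2 at 197 to 326. The Y-linked Eif2s3y stood at 2812 to 3199 in WT and 4230.3 to 5668 in dKO, but at 2.11, 0.97 and 55.4 in the Tet2 KO libraries and 1524, 2.32 and 0.89 in those of Traf6 KO. Sex and genotype therefore cannot be told apart in comparisons that involve a single knockout. The 8 LSK marker genes were detected in every group, with a summed signal of 142048 to 158864 in WT and 88046 to 112987 in dKO. Kit, Gata2, Hlf and Meis1 fell in dKO, and Cd34, Flt3 and Ly6a did not pass. Kit, the receptor gene of the gate itself, stood at 44484, 47837 and 47804 in WT and 11935, 4099 and 4105 in dKO (-3.00 ± 0.39 (SE), limma adjusted p = 0.000326, and -1.88 with the length and GC trend described below taken off). The 7 markers of mature B, T and NK cells summed to 3512 to 4645 in WT and 7524 to 50200 in dKO, of which Nkg7 alone gave 3418 to 4565 and 7361 to 49423. Cd3e was at 0 in all 12 libraries. The 7 neutrophil and monocyte markers summed to 1808 to 3431 in WT and 3005 to 9361 in dKO. The erythroid markers (5 in the table) summed to 259 to 600 in WT, 734 to 6571 in Tet2 KO, 157 to 1349 in Traf6 KO and 1036 to 1333 in dKO. The 4 megakaryocyte markers summed to 8298 to 9441 in WT and 3910 to 9569 in dKO, and the 5 stromal and endothelial ones to 3616 to 4438 and 1206 to 3439. The part of these markers in the results was not tested. Library dKO replicate 3 had a normalised total of 39973892, against 25557760 to 28916082 in the other 11.

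The level of each factor was first compared between genes, as normalised signal per kilobase of the longest annotated transcript. Eif5a, whose protein carries hypusine and helps ribosomes through difficult peptide bonds, was the most abundant member in WT, at 26872 ± 1357 per kilobase (SD, n = 3). Next came Eif4g2, a relative of eIF4G that lacks the eIF4E-binding part, at 7217 ± 396, the eIF3 core gene Eif3b at 6588 ± 1664 and the helicase helper Eif4h at 6522 ± 1075. These 3 did not differ beyond their spread. Among the paired genes of 1 activity, the helicases Eif4a1 and Eif4a2 stood at 851 ± 55.8 and 1181 ± 325 per kilobase, and the scaffolds Eif4g1 and Eif4g3 at 2024 ± 673 and 425 ± 116. The WT values of Eif4a1 and Eif4a2 overlapped. Of the 50-base words of their transcripts, 33.3% and 12.7% also occur in other genes, so reads may be shared. The repressors Eif4ebp1 and Eif4ebp2 stood at 720.4 ± 63.6 and 53.5 ± 5.94. At the low end, Eif5a2, Eif4ebp2, Eif3j and the Argonaute genes Eif2c1, Eif2c3 and Eif2c4 all had WT means between 15.2 and 75.6 per kilobase. Eif4e1b, an oocyte relative of Eif4e, and Eif2c5 had no read in any of the 12 libraries, and the repressor gene Eif4ebp3 had 2 reads in WT replicate 3 and none in the other 11. A count of 0 allows up to 3 reads per library, counting error only. These 3 genes did not pass the filter on low values, so 49 of the 52 members were tested.

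**Figure D1:**
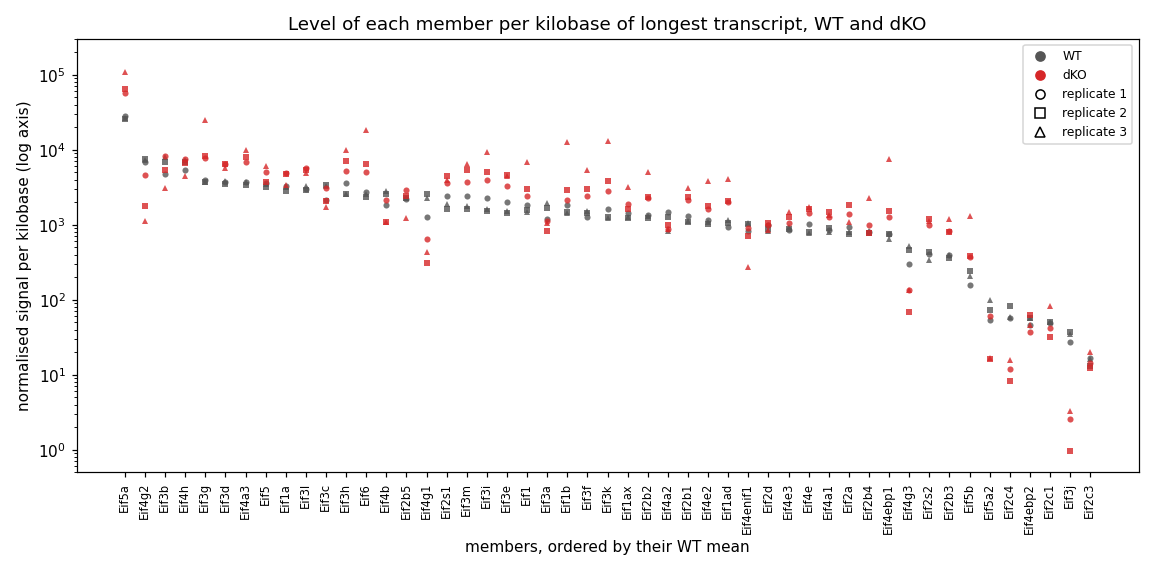
Normalised signal per kilobase of longest transcript (log axis) of the members with a read count above the filter, in the 3 WT and 3 dKO libraries, ordered by WT mean. Eif5a leads in both genotypes, with WT values of 25678 to 28348 and dKO values of 56495 to 108908 per kilobase, and Eif3j has the widest gap between genotypes.

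The promoters were read for the E-box CACGTG, the DNA word bound by MYC with its partner MAX and by other factors of the same family. The word reads the same on both strands. Promoters from 250 bases before to 50 bases after each gene start (RefSeq, GRCm38.p6) were at hand for 41 members, and 10 of them (24.4%) held the word in at least 1 of their promoters. Of all 27025 genes with a promoter sequence, 8.09% held it. The member promoters were also richer in G and C, with a median of 64.7% against 52.7%, and the share was not compared at equal GC. The windows below, 30 bases each and written 5′ to 3′ on the strand of the gene, show the word in capitals for members whose levels are described further on. A match is a description of letters and no evidence that a factor binds there.
Eif4e chr3:138527192-138527221 (plus strand): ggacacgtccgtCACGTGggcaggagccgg
Eif4a1 chr11:69672595-69672624 (minus strand): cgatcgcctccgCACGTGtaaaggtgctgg
Eif4g1 chr16:20672661-20672690 (plus strand): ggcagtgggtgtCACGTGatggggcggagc
Eif3k chr7:28981915-28981944 (minus strand): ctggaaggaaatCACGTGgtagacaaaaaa
Eif3f chr7:108934335-108934364 (plus strand): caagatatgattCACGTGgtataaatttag
Eif3a chr19:60790654-60790683 (minus strand): ccgcgagggaatCACGTGgttccttccttt
Eif5a chr11:69921443-69921472 (minus strand): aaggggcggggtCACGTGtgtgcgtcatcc
Eif5a2 chr3:28781148-28781177 (plus strand): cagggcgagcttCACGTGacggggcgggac

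Eif4e, Eif5a, Eif5a2 and Eif4g1 held the word at more than 1 position, and Eif1b and Eif4h held it once. In the comparison of dKO with WT described next, 6 of the 10 genes with the word rose (Eif4e, Eif4a1, Eif3k, Eif3f, Eif1b and Eif5a), 3 fell (Eif4g1, Eif3a and Eif5a2) and Eif4h did not pass, where 21.9% of all genes rose and 26.5% fell. Without dKO replicate 3, 5 rose and 1 fell, and with the trend removed 4 rose (Eif4e, Eif4a1, Eif3k and Eif3f) and Eif4g1 alone fell. Of all 49 tested members, with or without the word, 28 rose and 8 fell. Those counts were 26 and 5 without dKO replicate 3, and 22 and 2 with the trend removed. Whether the word goes with the rises among members was not tested. Myc itself stood at 18778, 19732 and 19670.5 in WT and 27733, 28914 and 19627 in dKO, with a log2 change of 0.37 ± 0.24 (SE) that did not pass the test (limma, adjusted p = 0.214).

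In the values as deposited, most initiation factor genes were higher in LSK cells that lacked both Tet2 and Traf6. In dKO against WT, 28 of the 49 tested members rose and 8 fell at an adjusted p under 0.05 (limma on log2(value + 1), Benjamini-Hochberg over all 14045 genes tested), and 13 did not pass. Of all genes tested, 21.9% rose and 26.5% fell. The median log2 change was 0.75 over the members and -0.094 over all genes. The 3 dKO libraries lay above all 3 WT libraries in 30 members and below them in 6, against 27.9% and 30.5% of all genes. Relative to the WT mean, the median change of the members was 0.59, 0.79 and 0.82 in dKO replicates 1, 2 and 3, against -0.11, 0.11 and 0.33 in the Tet2 KO libraries and 0.10, 0.40 and 0.14 in the Traf6 KO libraries. All 3 dKO libraries thus stood above the other 9 in this median. In bulk RNA, a larger share of cells with high expression and more RNA per cell cannot be told apart. Without dKO replicate 3 the counts were 26 risen and 5 fallen, where 17.4% and 23.7% of all genes rose and fell. The number that fell was also 5 without WT replicate 2, without WT replicate 3 or without dKO replicate 2. Of all genes, 2750, 2785 and 3091 fell in these settings in order.

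**Figure D2:**
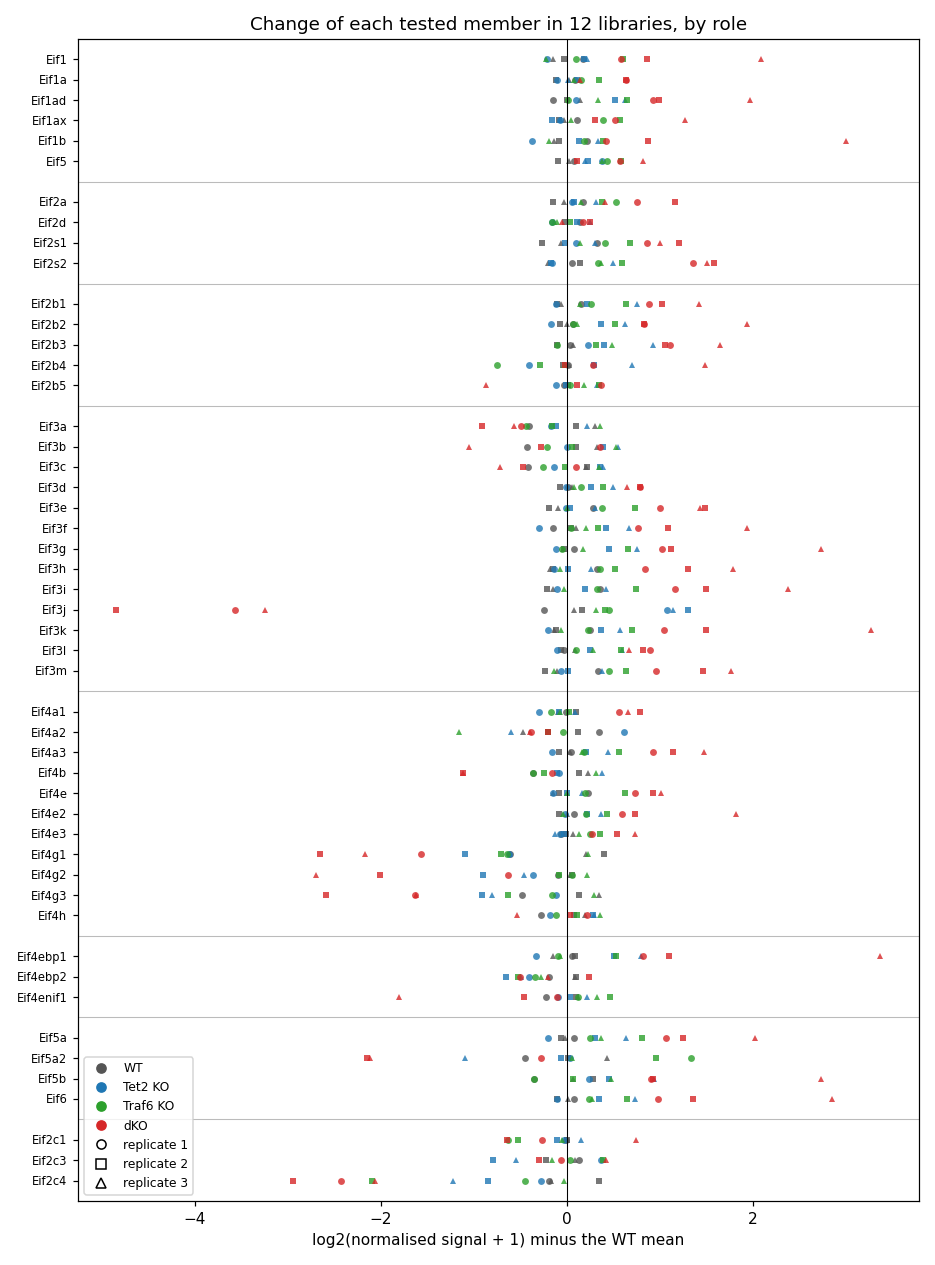
Change of each of the 49 tested members in each of the 12 libraries, as log2(normalised signal + 1) minus the WT mean of the same gene, grouped by role. Colours are genotypes and marker shapes are replicates. The dKO libraries lie mostly to the right of 0. All 3 lie to the left for Eif3j, the 3 Eif4g genes, Eif5a2, Eif2c4, Eif3a, Eif4a2, Eif4b and Eif4enif1.

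Transcript length went along with these changes and has to be read beside them. Over all genes, short transcripts (at most 1000 nucleotides) shifted from the WT mean by a median of 0.78, 1.20 and 2.85 log2 units in the 3 dKO libraries in order, and long ones (over 4000 nucleotides) by -0.81, -1.42 and -1.41. Among members of up to 2000 nucleotides 11 of 11 rose, while 50.9% of all tested genes of that length rose. Over 2000 and up to 4000 nucleotides 12 of 22 members rose and 1 fell, against 18.9% and 17.3% of all genes. Above 4000 nucleotides 5 of 16 members rose and 7 fell, against 5.76% and 54.4% of all genes. The Spearman correlation of the members' change with transcript length was -0.63 over 49 genes of the same libraries, given as a description. The comparison was therefore repeated with a smooth trend on length and GC content taken off each library. In that fit 22 members rose and 2, Eif3j and Eif4g1, fell, where 15.6% and 13.9% of all genes did. The median log2 change in that fit was 0.37 over the members and -0.0355 over all genes. The number of risen members that both fits share was 17. The values after removal stand below as the trend-removed change. The cause of the trend was not tested.

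**Figure D3:**
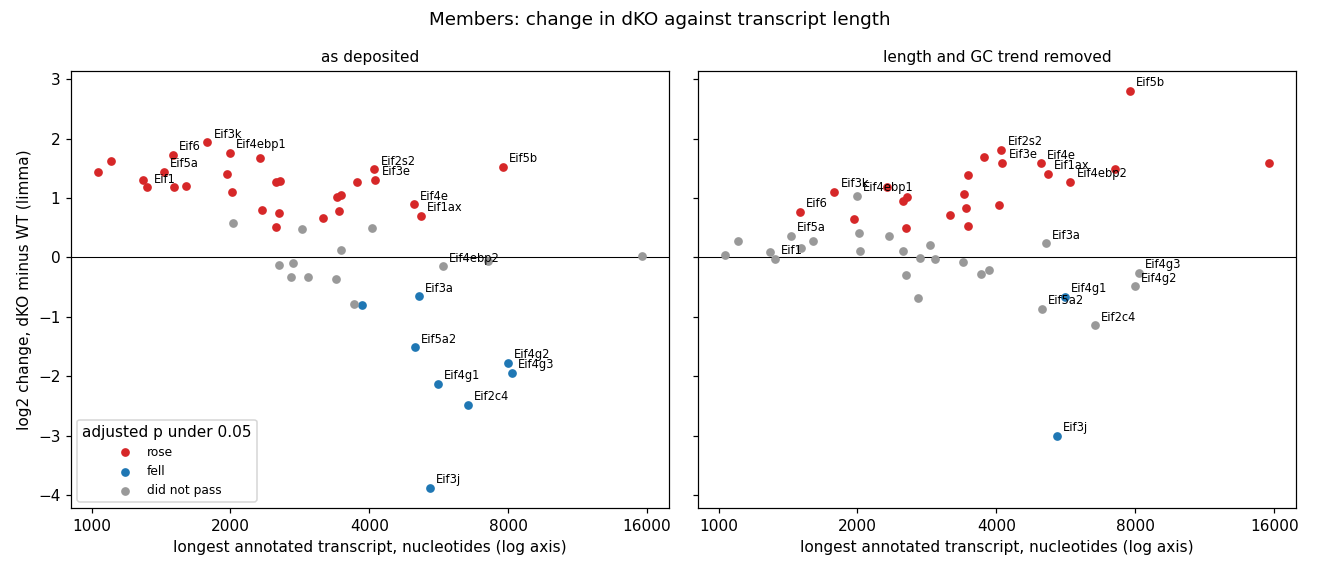
Log2 change in dKO against WT of each tested member against the length of its longest annotated transcript (log axis), from the deposited values on the left and after removal of the trend on the right. Red and blue points passed the test. On the left all 11 members of up to 2000 nucleotides lie above 0, and on the right Eif5b is the highest point and Eif3j the lowest.

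The genes of scanning and start codon choice come first. Of these 6, Eif1, Eif1ad, Eif1ax and Eif1b rose in dKO against WT and none fell, and 3 rose with the trend removed (Eif1ad, Eif1ax and Eif5). Eif1 stood at 2424, 2109 and 1948 in WT, 1852, 2454 and 2511 in Tet2 KO, 2302, 3272 and 1844 in the Traf6 KO libraries and 3232, 3925 and 9189.7 in the dKO libraries. Eif1 encodes the factor that keeps the scanning ribosome from stopping at wrong start codons. All 3 dKO libraries lay above every WT library, replicate 3 by most. The log2 change of Eif1 was 1.18 ± 0.35 (SE) with adjusted p = 0.0142, but 1.11, adjusted p = 0.0514, without WT replicate 3, and the trend-removed change was -0.021. Of the transcript of Eif1, 31.6% of 50-base words also occur in other genes, so its reads may be shared. Eif1b, a near relative of Eif1, stood at 1892, 1545 and 1482 in WT and 2183, 2980.3 and 13119.8 in dKO. The call (log2 change 1.43 ± 0.50 (SE), adjusted p = 0.0305) ended without any 1 of the WT libraries (adjusted p = 0.0503 to 0.0841) and without dKO replicate 3 (0.65, adjusted p = 0.0672), and the trend-removed change was 0.038.

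eIF1A, the partner of eIF1 at the start codon, is encoded by the autosomal Eif1a and the X-linked Eif1ax. Eif1a stood at 9426, 8178 and 8987 in WT, 8263, 9561 and 8944 in Tet2 KO, 9837, 11271 and 9327 in the Traf6 KO libraries and 13815, 13728 and 9749 in the dKO libraries. Its dKO libraries all lay above those of WT, yet the log2 change of 0.47 ± 0.19 (SE) did not pass (adjusted p = 0.0593), except without dKO replicate 3 (0.64, adjusted p = 0.00788). Eif1ax stood at 7320.5, 6370.3 and 6648 in WT and 9687, 8376 and 16301 in dKO, a change of 0.70 ± 0.24 (SE) with adjusted p = 0.0313. That call ended without any 1 of the WT libraries (adjusted p = 0.0505 to 0.0953) and without dKO replicate 3 (0.41, adjusted p = 0.0863), while its trend-removed change was 1.41 (adjusted p = 0.00409). Eif1ad, which encodes a protein with an eIF1A-like domain, rose from 2672 ± 269 to 6933 ± 3052 (SD, n = 3), a log2 change of 1.30 ± 0.29 (SE) with adjusted p = 0.00366. Eif5, the gene of the factor that triggers GTP hydrolysis on eIF2, was the most abundant of the 6 per kilobase in WT. Eif5 stood at 14654, 12993 and 14120.0 in WT, 18044, 16327 and 15970.0 in Tet2 KO, 18849.5, 20922 and 18118 in the Traf6 KO libraries and 20715, 14976 and 24586 in the dKO libraries. All 9 mutant libraries lay above the WT libraries, but the changes of 0.27 ± 0.20 (SE), 0.47 ± 0.20 (SE) and 0.50 ± 0.20 (SE) in Tet2 KO, Traf6 KO and dKO did not pass (adjusted p = 0.909, 0.596 and 0.0525). The last passed without dKO replicate 2 (0.70, adjusted p = 0.0183) and with the trend removed (0.88, adjusted p = 0.00727).

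Both eIF2 subunit genes of the list rose in dKO. eIF2 carries the initiator tRNA, its alpha subunit (Eif2s1) holds the serine that stress kinases phosphorylate, and its beta subunit is Eif2s2. Eif2s1 stood at 8336, 5551 and 6418 in WT, 7153, 6585 and 8245 in Tet2 KO, 8907, 10681 and 7343 in the Traf6 KO libraries and 12166, 15383 and 13363 in the dKO libraries. Eif2s2 stood at 1677, 1768 and 1396 in WT, 1439, 1428 and 2263 in Tet2 KO, 2032, 2423 and 2080.4 in the Traf6 KO libraries and 4130.0, 4831 and 4586 in the dKO libraries. For both genes every dKO library lay above the other 9 libraries. The log2 changes against WT were 1.02 ± 0.22 (SE) for Eif2s1 (adjusted p = 0.00285) and 1.49 ± 0.23 (SE) for Eif2s2 (adjusted p = 0.000579), and the trend-removed changes of 1.07 and 1.81 passed as well. Leaving out any 1 library ended neither call. Eif2a, an alternative carrier of initiator tRNA, rose from 2832 ± 327 to 4946 ± 1292, a change of 0.78 ± 0.23 (SE) with adjusted p = 0.0137, or 0.06 without WT replicate 2 and 0.0678 without dKO replicate 2. Eif2d, a factor of non-canonical initiation and recycling, stood at 3100.3 ± 304 and 3383 ± 356 in WT and dKO and did not pass (adjusted p = 0.628), though its trend-removed change of 0.53 did (adjusted p = 0.0395). The gamma subunit comes from the sex-linked pair left out of the list. Its X-linked gene Eif2s3x stood at 102 to 125 in WT and 57.2 to 113 in dKO, with 36.2% of its 50-base words in another gene.

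The 5 subunit genes of eIF2B, the exchange factor that recharges eIF2, split. Eif2b1, Eif2b2 and Eif2b3 rose in dKO, while Eif2b4 and the catalytic subunit gene Eif2b5 did not pass. Eif2b5 stood at 5682, 5842 and 5865 in WT, 5362, 5766 and 7286 in Tet2 KO, 5942, 7356 and 6579 in the Traf6 KO libraries and 7466, 6261 and 3174 in the dKO libraries. The dKO range covered the WT range, with a log2 change of -0.13 ± 0.28 (SE) (adjusted p = 0.719). Eif2b1, the alpha subunit gene, rose by 1.11 ± 0.26 (SE), Eif2b2, the beta subunit gene, by 1.20 ± 0.31 (SE), and Eif2b3, the gamma subunit gene, by 1.27 ± 0.26 (SE) on the log2 scale (adjusted p = 0.00432, 0.00724 and 0.0023). Eif2b3 alone of the 5 passed with the trend removed (1.68, against 0.42, 0.28, 0.11 and -0.30). The delta subunit gene Eif2b4 stood at 1635, 1578 and 1648 in WT and 1978, 1595 and 4554 in dKO, so that replicate 3 alone lay well above WT.

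The eIF3 genes made up the largest group and gave 9 of the 28 rises, more than any other group. eIF3 is a complex of up to 13 subunits on the small ribosomal subunit that links it to the mRNA. Of its 13 genes, 9 rose in dKO against WT (Eif3d, Eif3e, Eif3f, Eif3g, Eif3h, Eif3i, Eif3k, Eif3l and Eif3m), Eif3a and Eif3j fell, and Eif3b and Eif3c did not pass. With the trend removed, 6 rose (Eif3d, Eif3e, Eif3f, Eif3i, Eif3k and Eif3m) and Eif3j fell. Eif3k stood at 2867, 2226 and 2191 in WT, 2088, 3118 and 3582 in Tet2 KO, 2821, 3921 and 2304 in the Traf6 KO libraries and 4988, 6782 and 23312 in the dKO libraries. The dKO libraries lay above the other 9, replicate 3 far above its 2 partners. Eif3k, a peripheral subunit, rose by 1.94 ± 0.45 (SE) on the log2 scale (adjusted p = 0.00454; trend-removed 1.11, adjusted p = 0.015). Eif3e stood at 8266, 5948 and 6339 in WT, 6766, 6941 and 8365 in Tet2 KO, 8822, 11275 and 6798 in the Traf6 KO libraries and 13546, 18953 and 18363 in the dKO libraries. Eif3e, a subunit in contact with eIF4G, showed a close set of dKO values, and its change of 1.31 ± 0.23 (SE) (adjusted p = 0.0012) was 1.59 with the trend removed. Eif3i stood at 5274, 3569 and 3720.2 in WT, 3844, 4709.6 and 5544 in Tet2 KO, 5153, 6931 and 4049 in the Traf6 KO libraries and 9222, 11644 and 21443 in the dKO libraries. This subunit, which yeast eIF3 shares, rose by 1.68 ± 0.31 (SE) (adjusted p = 0.00146; trend-removed 1.18, adjusted p = 0.004).

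The other 6 risen subunit genes had log2 changes from 0.75 (Eif3d) to 1.63 (Eif3g), and no left-out library ended any of the 9 rises. Eif3g, the subunit with an RNA recognition motif, stood at 4035 to 4382 in WT and 8442, 9073 and 27662 in dKO, with a trend-removed change of 0.28 that did not pass. Eif3h stood at 3282 to 4670.3 and 6682 to 12821, Eif3m at 3194 to 4746 and 7301 to 12818, and Eif3f at 3195 to 3779 and 5991 to 13563 in WT and dKO. These 3 belong to the octamer of mammalian eIF3, and in all 3 the groups did not overlap. Eif3a, Eif3b and Eif3c, the genes of large subunits, did not rise. Eif3a stood at 6034, 8586 and 9897 in WT, 7105, 7412 and 9308 in Tet2 KO, 5906, 7175 and 10223 in the Traf6 KO libraries and 5697, 4255 and 5409.8 in the dKO libraries. Its dKO values lay below the WT values, and the log2 change of -0.66 ± 0.26 (SE) passed narrowly (adjusted p = 0.0479). That call ended without any 1 of 8 libraries: all 3 of Tet2 KO, Traf6 KO replicate 2, WT replicates 2 and 3 and dKO replicates 2 and 3 (adjusted p = 0.0533 to 0.184). The trend-removed change was 0.24. Eif3b stood at 14102, 20340.2 and 23766 in WT, 19046, 24885 and 27729.5 in Tet2 KO, 16430.2, 19796 and 27407 in the Traf6 KO libraries and 24394, 15652 and 9165 in the dKO libraries. The dKO values of Eif3b ranged from above the WT range to below it, with a change of -0.32 ± 0.33 (SE) (adjusted p = 0.444). Eif3c, the gene of a subunit that binds eIF1 and eIF5, had -0.36 ± 0.27 (SE) (adjusted p = 0.286). In the values as deposited, the subunit genes of 1 complex therefore moved apart in dKO. With the trend removed, Eif3a, Eif3b and Eif3c had 0.24, -0.027 and -0.074 and did not pass, and Eif3j alone fell. Some reads of eIF3 genes may be shared, as 42.1% of the 50-base words of Eif3d lie in an overlapping gene and 26.2% of those of Eif3h in other genes.

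**Figure D4:**
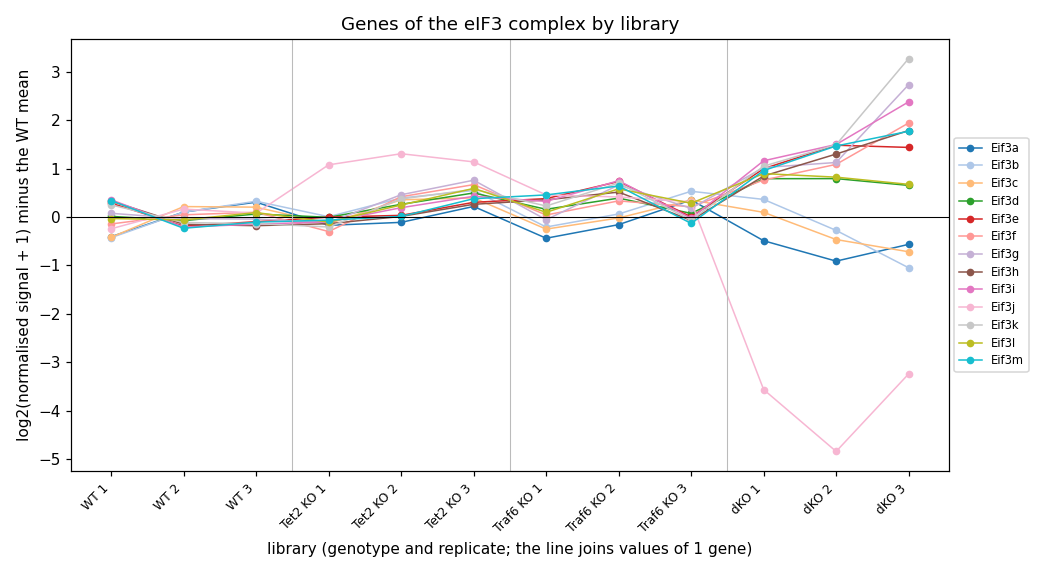
Log2(normalised signal + 1) minus the WT mean for the 13 eIF3 genes in the 12 libraries; each line joins the values of 1 gene and the order of replicates carries no meaning. In the 3 dKO libraries 9 genes lie above 0 throughout, Eif3a lies below 0 throughout, and Eif3j drops to between -4.84 and -3.24.

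Eif3j had the widest change of all members. Its protein is a loosely held eIF3 partner that assists mRNA entry and ribosome recycling. The symbol was matched to Eif3j1 (chromosome 2, 122028546 to 122056598, GRCm38). Eif3j stood at 149.7, 199 and 188 in WT, 376, 440.5 and 392 in Tet2 KO, 244, 237 and 221 in the Traf6 KO libraries and 14.1, 5.22 and 17.9 in the dKO libraries. The 4 genotypes did not overlap: Tet2 KO was highest, then Traf6 KO, then WT, and dKO was near 0. The dKO values rest on 15, 4 and 10 reads, against 174 to 211 reads in WT. The log2 change in dKO was -3.88 ± 0.43 (SE) against WT (adjusted p = 0.000291), -5.06 ± 0.43 (SE) against Tet2 KO (adjusted p = 4.45e-05) and -4.28 ± 0.43 (SE) against Traf6 KO (adjusted p = 0.000592). With the trend removed they were -3.00, -4.42 and -3.51, all past the threshold, and no left-out library ended a call. The higher values in Tet2 KO (1.18 ± 0.43 (SE), adjusted p = 0.38) and Traf6 KO (0.40 ± 0.43 (SE), adjusted p = 0.877) did not pass. Counts of this gene are uncertain in origin. Of its 50-base words, 54.8% occur in other genes, 39.4% in the near-identical copy Eif3j2, and its exons overlap Gm47314 and Spg11, so the part of multi-mapping reads was not tested.

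In the values as deposited, genes of the cap-binding complex moved in opposite directions. Of the 11 tested genes of eIF4F and its helicase helpers, Eif4a1, Eif4a3, Eif4e, Eif4e2 and Eif4e3 rose in dKO, and Eif4b, Eif4g1, Eif4g2 and Eif4g3 fell. With the trend removed 3 rose (Eif4a1, Eif4e and Eif4e2) and Eif4g1 alone fell. Eif4e stood at 5041, 4052 and 3861 in WT, 3885, 4294 and 4817 in Tet2 KO, 4900.4, 6629 and 4296 in the Traf6 KO libraries and 7134, 8188 and 8645 in the dKO libraries. Eif4e, the cap-binding protein gene (chromosome 3, 138526179 to 138559696), was higher in each dKO library than in the other 9 libraries, with a log2 change of 0.89 ± 0.22 (SE) (adjusted p = 0.0054). The trend-removed change was 1.59 (adjusted p = 0.00153). Eif4g1 stood at 7165, 14458 and 12619 in WT, 7139.6, 5121 and 7140.5 in Tet2 KO, 7016, 6706 and 12781 in the Traf6 KO libraries and 3688, 1739.9 and 2423 in the dKO libraries. Eif4g1, the main scaffold gene (chromosome 16, 20668313 to 20692884), was lower in dKO than in every other library, with a change of -2.13 ± 0.35 (SE) (adjusted p = 0.000718). Trend-removed it was -0.66 (adjusted p = 0.0397) and still past the threshold. The ratio of Eif4g1 to Eif4e per kilobase was 1.26, 3.16 and 2.89 in WT and 0.458, 0.188 and 0.248 in dKO. Eif4g2 stood at 54081, 59944 and 59066 in WT, 44688, 30987 and 41789 in Tet2 KO, 59824, 54423 and 67184 in the Traf6 KO libraries and 37296, 14354 and 8919.9 in the dKO libraries. The decline of Eif4g2, which serves cap-independent initiation, was -1.77 ± 0.38 (SE) (adjusted p = 0.00294), and dKO replicate 1 was the least low. Eif4g3, a second scaffold gene, went from 2419.6 to 4268 in WT to 557 to 1096 in dKO (-1.95 ± 0.35 (SE), adjusted p = 0.00121). Trend-removed changes of -0.49 for Eif4g2 and -0.25 for Eif4g3 did not pass.

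The helicase genes differed as well. Eif4a1 stood at 2676, 2881 and 2529.5 in WT, 2184, 2540.2 and 2854 in Tet2 KO, 2398, 2746 and 2555 in the Traf6 KO libraries and 3986, 4642 and 4254 in the dKO libraries. Eif4a2 stood at 3964, 3389.7 and 2238 in WT, 4768, 2709 and 2061 in Tet2 KO, 3016, 2699.5 and 1395 in the Traf6 KO libraries and 2391, 2697 and 2364 in the dKO libraries. Eif4a1 separated dKO from the other 9 libraries, with a change of 0.67 ± 0.19 (SE) (adjusted p = 0.0131; 0.63, adjusted p = 0.0556, without WT replicate 3) and a trend-removed change of 0.72. Eif4a2 overlapped across all groups (-0.33 ± 0.35 (SE), adjusted p = 0.465). The Eif4a1 to Eif4a2 ratio per kilobase was 0.577, 0.727 and 0.966 in WT and 1.43, 1.47 and 1.54 in dKO, and Traf6 KO replicate 3 reached 1.57. Of the 50-base words of Eif4a1, 33.3% occur in other genes, mostly a pseudogene. Eif4a3, a helicase of the exon junction complex, rose by 1.18 ± 0.22 (SE) (adjusted p = 0.00144), but the trend-removed value was 0.15. Of the eIF4E relatives, Eif4e2, a cap binder without eIF4G contact, rose by 1.05 ± 0.29 (SE) (adjusted p = 0.01, trend-removed 1.39). Eif4e3 rose by 0.52 ± 0.20 (SE) (adjusted p = 0.0452, trend-removed 0.10), a call that ended without any 1 of 11 libraries, all but dKO replicate 1 (adjusted p up to 0.115). The eIF4A helpers did not rise. Eif4b fell in dKO (-0.80 ± 0.30 (SE), adjusted p = 0.0401), with 7071, 10006 and 10713 in WT and 8183, 4196 and 4214 in dKO. Its groups overlapped, and the call ended without Tet2 KO replicates 1 or 2, WT replicates 2 or 3 or dKO replicates 2 or 3 (adjusted p = 0.0501 to 0.140). The trend-removed change of Eif4b was -0.21 and did not pass. Eif4h stood at 14512 to 20173 and 12165 to 20442 (-0.095 ± 0.24 (SE), adjusted p = 0.766).

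**Figure D5:**
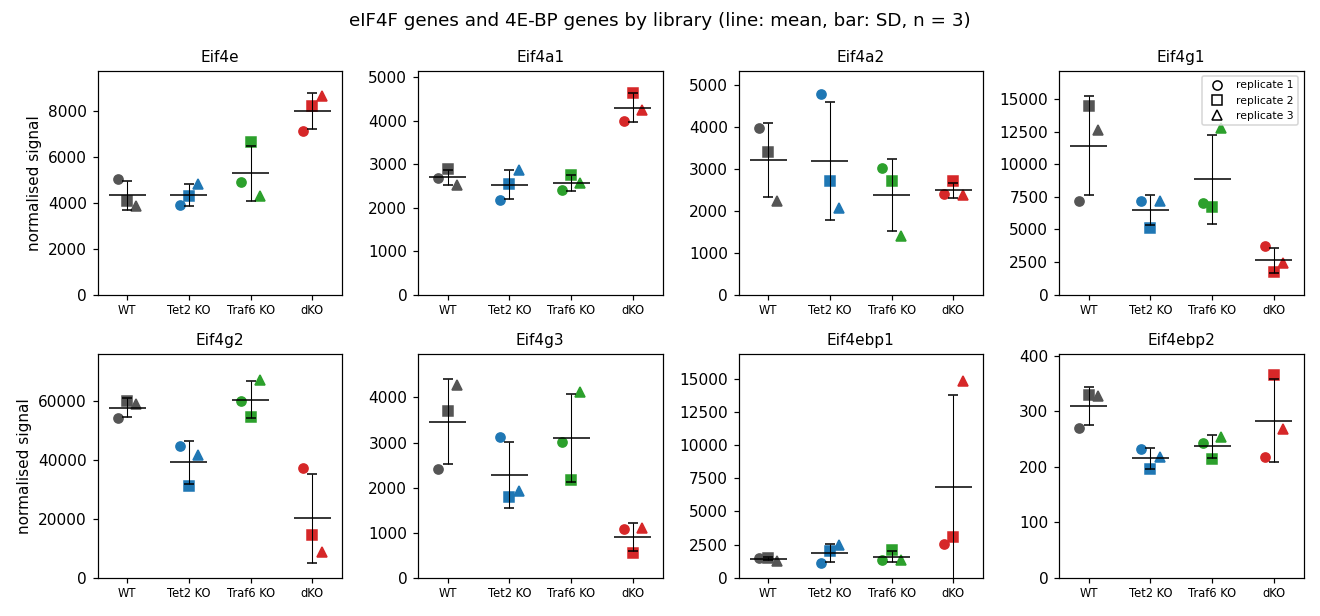
Normalised signal of 6 genes of eIF4F and its relatives and 2 repressor genes in every library, with the group mean (horizontal line) and SD (bar, n = 3); each panel has its own axis from 0. Eif4e and Eif4a1 are highest in the 3 dKO libraries, Eif4g1 and Eif4g3 are lowest there, and a single dKO library lifts the mean of Eif4ebp1.

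Of the 4E-BP genes and Eif4enif1, 3 were tested and only Eif4ebp1 passed in dKO against WT. Eif4ebp1 stood at 1498, 1525 and 1293 in WT, 1139, 2043 and 2497 in Tet2 KO, 1344, 2080.0 and 1362 in the Traf6 KO libraries and 2527, 3073 and 14864 in the dKO libraries. Eif4ebp1 encodes the main mTOR-controlled repressor of eIF4E, and its dKO mean was carried by replicate 3. The log2 change was 1.76 ± 0.53 (SE) (adjusted p = 0.0153), but 1.69, adjusted p = 0.0502, without WT replicate 3, and the trend-removed 1.04 did not pass (adjusted p = 0.0746). The ratio of Eif4ebp1 to Eif4e per kilobase was 0.743, 0.941 and 0.837 in WT and 0.885, 0.938 and 4.3 in dKO, so 2 of the 3 dKO libraries stood inside the WT range. Eif4ebp2 stood at 269.6, 330.2 and 328 in WT, 232, 196 and 218 in Tet2 KO, 244, 214 and 254 in the Traf6 KO libraries and 218, 365 and 268 in the dKO libraries. The second repressor gene was lower in all 6 single-knockout libraries than in WT, without passing the test (-0.52 ± 0.30 (SE) and -0.38 ± 0.30 (SE), adjusted p = 0.759 and 0.808). In dKO its change was -0.15 ± 0.30 (SE) (adjusted p = 0.704), but 1.27 with the trend removed (adjusted p = 0.0104). Its longest transcript has 5784 nucleotides. Eif4enif1, which carries eIF4E into the nucleus, stood at 3056, 3839 and 3886 in WT and 3315, 2605 and 1020.5 in dKO (-0.79 ± 0.35 (SE), adjusted p = 0.0737), and passed without dKO replicate 1 (-1.13, adjusted p = 0.00904).

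The late factors act at subunit joining and after it. Eif5a, Eif5b and Eif6 rose in dKO and Eif5a2 fell. Eif5a stood at 40736, 36900.0 and 38209 in WT, 33694, 47760.4 and 59914 in Tet2 KO, 46036, 67765 and 49648 in the Traf6 KO libraries and 81183, 91613 and 156501 in the dKO libraries. Every dKO library of Eif5a was above the other 9, and the log2 change was 1.45 ± 0.27 (SE) (adjusted p = 0.0015), or 0.37 with the trend removed (adjusted p = 0.102). Eif5a2 stood at 269, 372 and 499 in WT, 378, 352 and 172 in Tet2 KO, 935, 720.4 and 383 in the Traf6 KO libraries and 304, 82.2 and 84.0 in the dKO libraries. Eif5a2, its scarce paralogue, moved the other way in dKO replicates 2 and 3, while replicate 1 stayed inside the WT range. The change of -1.52 ± 0.53 (SE) (adjusted p = 0.0314) did not pass without WT replicates 2 or 3 or dKO replicates 2 or 3 (adjusted p = 0.0767 to 0.113), nor with the trend removed (-0.87). Eif5a exceeded Eif5a2 per kilobase 530.0, 347 and 268-fold in WT and 934, 3900.0 and 6520.0-fold in dKO. The longest transcripts of the 2 genes have 1437 and 5027 nucleotides, so the length trend enters this ratio. The dKO values of Eif5a2 rest on 324, 63 and 47 reads. Eif5b stood at 1214, 1883 and 1624 in WT, 1823, 2124 and 2974 in Tet2 KO, 1214, 1622 and 2148 in the Traf6 KO libraries and 2912, 2942 and 10292 in the dKO libraries. Eif5b, the GTPase gene of subunit joining, rose by 1.52 ± 0.43 (SE) (adjusted p = 0.0113), and its trend-removed change of 2.81 (adjusted p = 0.00163) was the highest of the members. Of its words, 18.2% lie in exons of Rev1 on the other strand, whose reads cannot be told apart from its own. Eif6 stood at 4037, 3553 and 3858 in WT, 3534, 4857 and 6346 in Tet2 KO, 4505, 5980.1 and 4618 in the Traf6 KO libraries and 7533, 9768 and 27580.0 in the dKO libraries. Eif6 encodes the protein that keeps the large subunit from joining too early and takes part in its assembly. It rose by 1.73 ± 0.39 (SE) (adjusted p = 0.00367; trend-removed 0.77, adjusted p = 0.0127).

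The Argonaute genes under Eif2c symbols are no initiation factors. Eif2c4 stood at 377, 547 and 383 in WT, 353, 238 and 183 in Tet2 KO, 314, 99.8 and 419.8 in the Traf6 KO libraries and 78.8, 54.8 and 102 in the dKO libraries. Eif2c4 (Ago4) fell in dKO (-2.48 ± 0.50 (SE), adjusted p = 0.0022), with a trend-removed change of -1.15 that did not pass (adjusted p = 0.0509). Eif2c1 (Ago1) stood at 359, 363 and 362 in WT and 300.3, 231 and 606 in dKO (-0.055 ± 0.35 (SE), adjusted p = 0.91), and Eif2c3 (Ago3) at 202 to 259.7 and 192 to 316 (0.021 ± 0.37 (SE), adjusted p = 0.968). Both are long transcripts and both passed upward with the trend removed (1.50 and 1.59). Without the 4 Argonaute symbols the dKO counts were 28 risen and 7 fallen of 46 tested.

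In Tet2 KO against WT no member passed the test in limma, where 0.107% of all genes rose and 0.306% fell. On the recovered reads, edgeR called no member, while DESeq2 called Eif3j upward, as did limma on the 2 groups alone. At an unadjusted p under 0.05 there were 2 members, Eif3j above and Eif4g1 (-0.77 ± 0.35 (SE), adjusted p = 0.554). Of the 49 members 37 were higher and 12 lower, with a median log2 change of 0.11 against 0.017 over all genes. The groups did not overlap in 3 members with higher values (Eif2b3, Eif3j and Eif5) and in 4 with lower values (Eif2c4, Eif4ebp2, Eif4g1 and Eif4g2). Over all genes these shares were 8.07% and 11.1%.

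In Traf6 KO against WT no member passed either, where 0.0783% of all genes rose and 0.192% fell, and neither edgeR nor DESeq2 on the recovered reads called any. Eif5 was the 1 member at an unadjusted p under 0.05. Of the 49 members 38 were higher and 11 lower, with a median of 0.21 against -0.029 over all genes. The 3 Traf6 KO libraries lay above all WT libraries in 12 members (Eif2b2, Eif2b5, Eif2s2, Eif3d, Eif3j, Eif3l, Eif4a3, Eif4e3, Eif4enif1, Eif5, Eif5a and Eif6) and below them in 2 (Eif2c1 and Eif4ebp2), against 9.68% and 11.0% of all genes.

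The double knockout was also set against each single knockout. These comparisons share the dKO libraries with the one against WT, so their counts are not independent of it. Against Tet2 KO, 25 members rose and 6 fell, where 15.5% and 19.9% of all genes did. With the trend removed 15 rose and 1 (Eif3j) fell, where 9.01% and 7.33% of all genes did. The rises that no left-out library ended were 6: Eif2s2 (1.43 ± 0.23 (SE)), Eif3e (1.20 ± 0.23 (SE)), Eif3h (1.27 ± 0.27 (SE)), Eif3i (1.51 ± 0.31 (SE)), Eif3m (1.29 ± 0.27 (SE)) and Eif4a3 (1.02 ± 0.22 (SE)), with adjusted p = 0.00528, 0.00737, 0.00849, 0.00835, 0.00868 and 0.00904. Eif2s2 and Eif3e also passed with the trend removed (1.65 and 1.35), while Eif3h and Eif4a3 did not (0.19 and 0.15). The count of rises was 6 without the library labelled Tet2 KO replicate 1, 13 without Tet2 KO replicate 2 and 15 without dKO replicate 3, and 0 in a fit of the 2 groups alone. Of all genes, 206, 1340, 1214 and 16 rose in these settings in order, against 2174 in the main fit. With every library scaled to the same total, 12 members rose and 7 fell, and of all genes 1458 rose and 3430 fell, against 2174 and 2789 as deposited. The count of falls was 1 without the library labelled Tet2 KO replicate 1, 2 without dKO replicate 2 and 11 without dKO replicate 1. Of all genes, 661, 1733 and 3676 fell in these settings in order.

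Against Traf6 KO, 23 members rose and 7 fell, where 17.3% and 20.7% of all genes did, and with the trend removed 16 rose and 2 (Eif3j and Eif5a2) fell, beside 10.4% and 9.12% of all genes. Eif2s2 (1.05 ± 0.23 (SE), adjusted p = 0.00638) and Eif3i (1.33 ± 0.31 (SE), adjusted p = 0.00896) were the 2 rises that no left-out library ended. The falls that held in this way were Eif3j, Eif4g1 (-1.76 ± 0.35 (SE)), Eif4g2 (-1.84 ± 0.38 (SE)), Eif4g3 (-1.78 ± 0.35 (SE)) and Eif5a2 (-2.30 ± 0.53 (SE)), with adjusted p = 0.0038, 0.00465, 0.00373 and 0.0082 for the last 4. The count of rises was 6 without the library labelled Traf6 KO replicate 1, 5 without Traf6 KO replicate 3 and 13 without dKO replicate 3, and 1 in a fit of the 2 groups alone, in which 3 fell. Of all genes, 508, 432, 836 and 78 rose in these settings in order, against 2432 in the main fit. In the fit of the 2 groups alone 892 of all genes fell.

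Whether the loss of both genes gave more than the sum of both single losses was asked with the interaction, which is the change from Tet2 KO to dKO less the change from WT to Traf6 KO. The interaction draws on both single knockouts, so sex and genotype cannot be told apart in it. Eif3j alone passed, with -5.45 ± 0.61 (SE) on the log2 scale (adjusted p = 0.00109, trend-removed -4.93), where 0.114% of all genes fell and 0.107% rose. The median interaction of the 49 members was 0.48 against -0.008 over all genes, with 35 above 0. With the trend removed the median was 0.10 over the members and -2e-04 over all genes. The Spearman correlation of the members' interaction as deposited with transcript length was -0.59, given as a description. None of the other 48 passed, so for them a larger effect of the double loss was not shown. Without dKO replicate 1 the counts were 6 risen (Eif2s2, Eif3h, Eif3i, Eif3k, Eif3m and Eif4a1) and 5 fallen (Eif3j, Eif4b, Eif4enif1, Eif4g2 and Eif5a2). Of all 14045 genes tested, 720 rose and 1725 fell in that setting.

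A further list of 47 genes that act around these factors was read in the same fit. Of its 45 tested genes 13 rose and 14 fell in dKO against WT, beside the 21.9% and 26.5% of all genes, and 11 rose and 7 fell with the trend removed. Their median log2 change was -0.061, against 0.75 for the members and -0.094 for all genes. With the trend removed these medians were -0.091, 0.37 and -0.0355 in order. Of the 6 genes that set eIF2 phosphorylation, the phosphatase subunit gene Ppp1r15a (GADD34), which is induced by stress, rose from 1346 to 1933 to 2869 to 4999 (1.16 ± 0.30 (SE), adjusted p = 0.00731, trend-removed 1.33). The constitutive Ppp1r15b and the kinase genes Eif2ak1 (HRI), Eif2ak3 (PERK) and Eif2ak4 (GCN2) fell, and Eif2ak2 (PKR) did not pass. With the trend removed 3 of these 4 falls passed. Eif2ak3 had the widest fall of them, from 1235, 1376 and 1196 in WT to 438, 136 and 211 in dKO (-2.44 ± 0.39 (SE), adjusted p = 0.000709), with a trend-removed change of -1.48 (adjusted p = 0.00507). In the mTOR and eIF4E kinase branch 5 of 9 genes fell (Larp1, Mknk2, Mlst8, Mtor and Rptor) and Rps6kb2 rose. With the trend removed 2 fell (Mknk1 and Mknk2) and 2 rose (Rps6kb1 and Rps6kb2), so that Mknk2 was the only fall of both fits. The call of Mlst8 ended without any 1 of the WT libraries or without dKO replicates 2 or 3 (adjusted p up to 0.076), and that of Rps6kb2 without WT replicate 1 (0.0525). Mtor stood at 1478, 1797 and 2108 in WT, 982, 333 and 426 in Tet2 KO and 388, 330.0 and 589.8 in dKO. Its log2 change in dKO was -2.07 ± 0.38 (SE) (adjusted p = 0.00131), but -0.22 with the trend removed. Of 10 tested elongation genes 7 rose and Eef2k and Gcn1l1 fell. The risen genes include Dhps and Dohh, the enzymes that make hypusine on eIF5A (1.09 ± 0.25 (SE) and 1.07 ± 0.28 (SE), adjusted p = 0.00399 and 0.00878), whose trend-removed changes of -0.087 and 0.21 did not pass. With the trend removed 5 of the 10 elongation genes rose and 1 fell. Both fits share 4 of the rises and the 1 fall.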

How the data were processed

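RNA of 12 libraries of sorted mouse LSK cells (Lineage-negative, Sca-1-positive, c-Kit-positive) was amplified with the SMART-Seq kit for low input and read on a HiSeq 4000, per the labels' protocols; such a kit does not mark strand, so overlapping genes on opposite strands cannot be told apart. The authors deposited 1 table of 37187 genes, with a normalised signal for each library, that is reads per gene over a size factor. Named tools, per the submitters' processing notes, are bcl2fastq, STAR, featureCounts and DESeq2. They list mm10 and GRCm38 as builds. Their versions, the annotation and the strand setting are not given in the sources used here. Division of every column by what 1 read is worth gave whole numbers for 100% of the values (tolerance 1e-06), and 1 read was worth 0.518 to 1.79 signal units. All columns of the table were mapped to samples by their names.

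Because the values are normalised, changes were tested with limma 3.58.1 (R 4.3.3, trend and robust moderation) on log2(value + 1), with all 12 libraries in 4 groups and no covariates. The 14045 genes that reached 10 in 3 or more libraries were tested, with Benjamini-Hochberg adjustment within a comparison and a threshold of 0.05. On this log2(value + 1) scale the changes of low genes are understated. Levels per kilobase, lengths and positions used the longest transcript in GENCODE M21 on GRCm38, where all 52 members were found, 4 of them through a synonym. The length and GC correction took a loess trend (span 0.3) of each gene's deviation from its mean over all libraries off each library, for the 13676 tested genes (97.4%) with a length. Shared sequence is the share of the 50-base words of a transcript that occur in other genes. Promoter windows were read from RefSeq (GRCm38.p6). The limma step alone was tested on simulated reads, for dKO against WT. The trend removal and the other steps were not tested in this way.

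Alternatives were 5 as the pseudocount, all genes without the low filter, equal library totals, TMM scaling of the deposited values, a replicate block, the compared groups alone, each library left out, the trend removed, and edgeR 4.0.16 and DESeq2 1.42.0 on the recovered reads (for dKO against WT, edgeR called 3103 rises and 3439 falls over all genes and DESeq2 3833 and 3756). Trend removal without dKO replicate 3 was added after seeing the data. The replicate numbers of the 4 groups were not taken as pairs, since 3 of 18 same-numbered library pairs had a correlation over 0.1 (range -0.177 to 0.193).

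The members and all gene lists were chosen with earlier results of these data known. Genes given with all their values were, per comparison, up to 10 rises and 10 falls past the threshold whose higher group averaged 50 or more, the most abundant member of each role per kilobase, and 15 listed genes of central roles. Members outside that rule are named as parts of their complex. The single values of 1 LSK marker gene are not reported here.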

Additional observations from a re-analysis of the deposited data

Results flagged for a closer look

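The interaction of Eif3j, the change from Tet2 KO to dKO minus the change from WT to Traf6 KO, was -5.45 on the log2 scale. It is listed because the test of that difference itself passed the threshold in limma (adjusted p = 0.00109). Eif3j was lower in dKO than in Tet2 KO, and not lower in Traf6 KO than in WT. The Y-linked Eif2s3y stood at 0.97 to 55.4 in Tet2 KO and 4230.3 to 5668 in dKO. Sex and genotype therefore cannot be told apart in this difference. The library labelled Traf6 KO replicate 1 also had a Traf6 signal of 2474, inside the WT range. The dKO values rest on 15, 4 and 10 reads, and 54.8% of the 50-base words of the transcript occur in other genes. Counting error and shared reads therefore limit this value, and their part in it was not tested.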

How the results depend on the processing

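No member passed in Tet2 KO or Traf6 KO against WT with any library left out, and Eif3j alone rose in Tet2 KO (1 member) with DESeq2 or with the compared groups alone. In dKO against WT, leaving out 1 library gave 22 to 28 rises and 5 to 9 falls. Falls numbered 5 without the filter on low values or with the compared groups alone, 2 with the trend removed, 3 with the trend removed and the replicate block, and 2 with the trend removed and dKO replicate 3 left out.

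Against Tet2 KO, leaving out 1 library gave 6 to 26 rises and 1 to 11 falls. Rises numbered 12 with equal library totals, 0 with the compared groups alone, 15 with the trend removed and 11 with the trend removed and dKO replicate 3 left out. Falls numbered 1 under the last 3 of these settings and 1 with the trend removed and the replicate block. Against Traf6 KO the ranges were 5 to 25 rises and 5 to 9 falls. Rises numbered 1 with the compared groups alone, 15 with the trend removed and the replicate block, and 11 with the trend removed and dKO replicate 3 left out, and falls 3, 2 and 1 under these settings and 2 with the trend removed alone. For the interaction the ranges were 0 to 6 rises and 1 to 5 falls, and DESeq2 gave 1 rise (Eif4a1). The 6 rises and 5 falls came without dKO replicate 1, where 720 of all genes rose and 1725 fell. With the compared groups alone, 16 of all genes rose against Tet2 KO and 78 against Traf6 KO.

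With equal library totals the median of all genes in dKO against WT moved from -0.094 to -0.34, and 22 members rose and 8 fell. The replicate block alone gave 27 rises and 7 falls in dKO against WT, 25 and 7 against Tet2 KO and 21 and 7 against Traf6 KO. It pairs libraries by number only.

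With the trend removed some genes changed sign. Eif1 had -0.021 in dKO against WT and -0.0049 against Traf6 KO (-0.059 and -0.043 without dKO replicate 3). In dKO against WT, Eif3a had 0.24 (0.082 without dKO replicate 3), Eif4ebp2 1.27 (1.28) and Eif2c1 1.50 (1.12), and Eif3h had -0.0015 against Traf6 KO. The replicate block left these values as they were. Without dKO replicate 3 and with the trend removed, Eif1b had -0.22 against WT and -0.11 against Tet2 KO, and Eif4g2 had 0.032 against Tet2 KO. Depth limits Eif3j, Eif2c4 and Eif5a2 most, which had the fewest reads in dKO.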
